A study of Mus musculus with 18 samples.

Results

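The passage from G1 into S phase is governed by D-type and E-type cyclins, the kinases they activate and the inhibitors of those kinases. Here the RNA of 10 of these genes is described: the cyclins Ccnd1, Ccnd2, Ccnd3, Ccne1 and Ccne2, the kinases Cdk4 and Cdk6, and the inhibitors Cdkn1b, Cdkn1c and Cdkn2a. They were taken by gene symbol from the 2 expression tables of the series, where they are 10 of 24335 genes for the line EA1 and 10 of 24320 genes for the line EA2. EA1 (p53 wild type) and EA2 (p53 null) are murine lung cancer cell lines driven by an Eml4-Alk fusion, an oncogene that the in vivo and in vitro libraries of both lines share. There were 18 libraries: 5 of EA1 in vivo, 5 of EA1 in vitro, 5 of EA2 in vivo and 3 of EA2 in vitro. For the in vivo libraries, 200000 EA1 or 500000 EA2 cells were placed in the left lung of male GFP-transgenic C57BL/6 hosts aged 8 to 12 weeks. Tumor growth lasted 3 to 4 weeks by the series text and 4 weeks by the methods, and GFP-negative cells were then sorted, so that host cells lacking GFP would also have passed the gate. Each in vivo library pooled 3 to 5 mice. The in vitro libraries came from dishes of the same lines, grown in RPMI-1640 with fetal bovine serum. Only the in vivo cells went through enzymatic dissociation, red blood cell lysis and sorting, whereas cultured cells were pelleted from the dish. The comparison of in vivo with in vitro libraries within a line asks how these genes differ between cancer cells that grew in the lung and cells that grew in culture. Effects of growth site and of this handling cannot be told apart in it.

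D-type cyclins (Ccnd1, Ccnd2 and Ccnd3) bind the kinases CDK4 and CDK6, are made in response to mitogens, and start the phosphorylation of the retinoblastoma protein. Phosphorylated retinoblastoma protein releases E2F factors, whose targets include the E-type cyclins Ccne1 and Ccne2, partners of CDK2 at the entry into S phase. The inhibitors p27 (Cdkn1b) and p57 (Cdkn1c) act on cyclin-CDK complexes, whereas the Cdkn2a locus encodes p16INK4a, which binds CDK4 and CDK6, and p19ARF, which stabilizes p53. In lung adenocarcinoma this pathway is often altered, by loss of the CDKN2A locus among other changes.

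Values are FPKM (fragments per length of transcript and per mapped fragment), a scale per length meant for comparing levels of different genes within a library. The trends with transcript length given below limit that comparison for genes of unlike length. The tables hold no fragment counts, so depth per library and counting error are unknown here. The smallest value is 0.01 for EA1 and 0 for EA2, and levels were compared only within a line. EA2 in vitro libraries 1 and 3 stood apart from EA2 in vitro library 2: their FPKM sums were 733184 and 717905, against 518260 in library 2, and log2 values fell by 0.417 and 0.331 per doubling of transcript length, against 0.034 in library 2. In EA1 the slope per doubling was -0.165 to -0.023 in vivo and 0.086 to 0.127 in vitro. The trend with length thus split by condition in EA1 too, in the direction opposite to EA2. In the EA2 in vivo libraries log2 values increased by 0.11 to 0.20 per doubling. The EA2 change of each member tested is therefore also given against in vitro library 2 alone, a setting in which 29.9% of all genes tested were called. That setting sets 5 libraries against 1, takes its spread from the in vivo libraries alone and assumes that the lone library varies like them, so its calls and missed calls carry little weight and its values serve to show how far libraries 1 and 3 set a change. Marker genes of other cells were measured in the in vivo libraries. In EA1, 11 of 21 leukocyte genes, 8 of 12 endothelial genes, 9 of 12 fibroblast and pericyte genes and 10 of 12 genes of normal lung epithelium were called higher in vivo. Most of these (9 leukocyte, 7 endothelial, 5 fibroblast and pericyte and 9 lung epithelium genes) averaged under 1 FPKM in culture and could be tested because they are high in vivo, which leaves the sums as the measure. Their summed FPKM in EA1 was 148 to 299 in vivo and 5.94 to 11.5 in vitro for leukocytes (led by Lyz2), 30.5 to 82.5 in vivo and 2.69 to 3.52 in vitro for endothelium (Cldn5), 191 to 2897 in vivo and 14.3 to 19.9 in vitro for fibroblasts and pericytes (Col3a1), and 318 to 1200 in vivo and 5.34 to 7.59 in vitro for lung epithelium (Scgb1a1). In EA2, 5 leukocyte genes, 5 fibroblast and pericyte genes, 5 lung epithelium genes and no endothelial gene were called higher. Of the genes tested there, 6 of 8 leukocyte, 4 of 6 fibroblast and pericyte and 5 of 5 lung epithelium genes averaged under 1 FPKM in culture. The sums are therefore the measure in EA2 as well, except for leukocytes, whose sum is led by Cd53, a gene also high in EA2 culture. Of the 8 leukocyte genes tested in EA2 none was called lower in vivo, and their median log2 change was 1.55. The EA2 sums were 21.8 to 214 in vivo and 54.2 to 140 in vitro for leukocytes, led by Cd53 with 38.8 ± 33.7 FPKM in vivo and 93.1 ± 41.7 FPKM in vitro, and 1.63 to 20.5 in vivo and 1.60 to 1.82 in vitro for endothelium. For fibroblasts and pericytes they were 366 to 836 in vivo and 6.77 to 32.4 in vitro (led by Dcn), and for lung epithelium 22.2 to 194 in vivo and 1.04 to 1.57 in vitro. None of these markers was at the lowest value of its table in every in vivo library. The epithelial genes were uneven in EA2. Epcam ran there from 0.132 to 2.04 FPKM in vivo and from 0.0935 to 0.207 FPKM in vitro, and 6 of 10 epithelial genes did not pass the filter on low values. The summed FPKM of the 10 epithelial genes was 293 to 737 in vivo and 655 to 1235 in vitro in EA2. In EA1 it was 1656 to 4059 in vivo and 3966 to 4395 in vitro. The part of these other cells in the results below was not tested, and in sorted bulk material fewer cells of a type and less RNA per cell cannot be told apart.

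The members changed in both lines and in both directions. Genes were compared with limma on log2(FPKM + 1) after a filter of at least 1 FPKM in 5 libraries (EA1) or 3 libraries (EA2), and called at an adjusted p (Benjamini-Hochberg over all genes of the line) under 0.05. In EA1, 9 of the 10 members passed the filter, 2 were called higher in vivo and 6 lower, while over all genes tested 30.9% were called higher and 40.7% lower. In EA2, 9 of 10 passed, 2 were called higher and 4 lower, against 32.9% and 24.4% of all genes. The calls of the lines shared 5 of the 10 members, each in the same direction: Ccnd1, Ccne1, Ccne2 and Cdk4 fell in vivo and Ccnd3 rose. Of the 10334 genes tested in both lines, 26.5% were called in both in the same direction. In vivo and in vitro values did not overlap for 8 members in EA1 (57.8% of all genes tested) and for 4 members in EA2 (50.8%). Calls are thus frequent among all genes in these tables, and what follows concerns which members moved, how far and in which direction. The median change of all genes in EA2 was 0.18 on the log2 scale and -0.01 after median-of-ratios scaling, and 5 of the 6 EA2 calls held under that scaling. In EA1 the median change was -0.09.

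**Figure D1:**
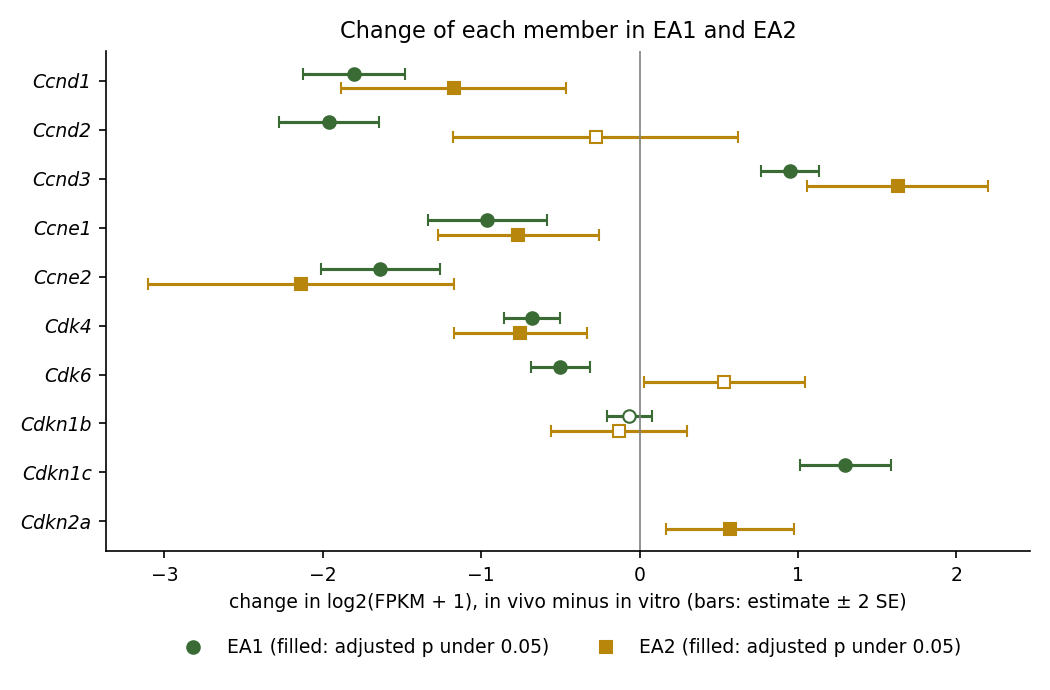
Change in log2(FPKM + 1), in vivo minus in vitro, of each member in EA1 (circles) and EA2 (squares), with bars of 2 standard errors either side and filled symbols at an adjusted p under 0.05. Ccnd1, Ccne1, Ccne2 and Cdk4 lie left of 0 in both lines and Ccnd3 lies right of 0, while Cdk6 lies left of 0 in EA1 (-0.50) and right of it in EA2 (0.53, not called); Cdkn1c in EA2 and Cdkn2a in EA1 were not tested.

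Among the D-type cyclins, Ccnd3 rose in vivo and Ccnd1 fell in both lines, so that the make-up of the family shifted. Ccnd1 (chr7:144929931-144939925, minus strand), the cyclin D most often amplified in carcinomas, had 93.5, 66.1, 65.9, 122 and 66.7 FPKM in EA1 in vivo libraries 1 to 5, against 307, 298, 264, 281 and 264 FPKM in EA1 in vitro libraries 1 to 5. Every in vivo library lay below every in vitro library, and the highest, in vivo library 4, was also the one with the highest summed fibroblast and pericyte markers (2897 FPKM, against 191 to 941 in the other in vivo libraries). The change was -1.80 ± 0.16 on the log2 scale (SE, limma, adjusted p = 2.38e-06), and the mean was 3.41-fold lower in vivo. In EA2 Ccnd1 had 51.0, 52.6, 59.6, 107 and 33.6 FPKM in vivo and 83.3, 176 and 146 FPKM in vitro. In vivo library 4 exceeded in vitro library 1, so the groups overlapped. The change was -1.17 ± 0.35 (limma, adjusted p = 0.0158; exact permutation, two-sided, p = 0.0536), and -1.62 against in vitro library 2 alone. The call was lost when in vitro library 2 (-0.95) or in vitro library 3 (-1.09) was left out, and after quantile normalization (-0.89).

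Ccnd2 (chr6:127125162-127152193, minus strand), whose product is interchangeable with cyclin D1 in many cells, changed in EA1. It had 10.5, 16.8, 15.4, 10.5 and 11.6 FPKM in EA1 in vivo and 38.1, 62.8, 57.0, 52.7 and 55.4 FPKM in EA1 in vitro. The in vivo values lay far below the in vitro values, with a change of -1.96 ± 0.16 (limma, adjusted p = 1.14e-06) and a mean 4.10-fold lower. In EA2 the values were 3.94, 7.41, 18.4, 11.7 and 10.9 FPKM in vivo and 5.77, 21.0 and 12.5 FPKM in vitro. They overlapped over most of their range, and the change of -0.28 (interval of 2 SE, -1.18 to 0.62) was not called (limma, adjusted p = 0.611). Against in vitro library 2 alone, the in vitro library with the highest Ccnd2, it was -1.08 and not called. The Ccnd2 changes of the 2 lines differed by -1.68 ± 0.48 (EA1 minus EA2, limma over all 18 libraries, adjusted p = 0.00555), although this call was lost against EA2 in vitro library 2 alone (-0.88) and once the trend of every library with length was taken out (-0.84). Over all genes, 63.3% were called in this test of the difference between lines. Of those calls 42.7% were positive, and 52.9% with median-of-ratios scaling.

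Ccnd3 (chr17:47505051-47599691, plus strand) encodes the D-type cyclin that is prominent in differentiating and lymphoid cells. Its values were 62.1, 57.7, 56.8, 60.4 and 49.9 FPKM in EA1 in vivo, against 33.5, 30.9, 23.7, 28.5 and 30.4 FPKM in EA1 in vitro. All in vivo libraries were above all in vitro libraries, by 0.95 ± 0.09 on the log2 scale (limma, adjusted p = 4.28e-06), or 1.95-fold in the means. EA2 libraries had 49.5, 59.9, 41.2, 53.2 and 29.8 FPKM in vivo and 11.1, 22.1 and 11.2 FPKM in vitro. Again the groups did not overlap, and the change was 1.63 ± 0.28 (limma, adjusted p = 0.000878), or 3.16-fold in the means. Against in vitro library 2 alone, the in vitro library with the highest Ccnd3, the change was 1.01 and was not called. Ccnd3 rose further in EA2 than in EA1 (difference -0.68 ± 0.28, limma, adjusted p = 0.0437), but that call was lost when any one of 12 libraries was left out. It was also lost against in vitro library 2 alone (-0.06) and after median-of-ratios scaling (-0.41). The exons of Ccnd3 overlap those of Bysl on the other strand, and the sources used here do not give whether the authors counted by strand. Exons of Ccnd1, Ccnd2, Cdk6 and Cdkn1c also overlap annotated genes of the other strand. Bysl averaged 8.04 ± 0.83 FPKM in vivo and 15.3 ± 1.83 FPKM in vitro in EA1 (SD, n = 5 each), the opposite direction to Ccnd3. In EA2 Bysl had 9.63 to 12.2 FPKM in vivo and 4.47, 13.6 and 5.05 FPKM in vitro (0.55, not called), the same direction as Ccnd3 and with in vitro library 2 highest for both genes. The part of Bysl in the Ccnd3 values was not tested. A processed copy, Ccnd3-ps, matches 881 bases of Ccnd3 at 96.25% identity and is not listed in either table. Whether any of its reads were counted as Ccnd3 is not known here.

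**Figure D2:**
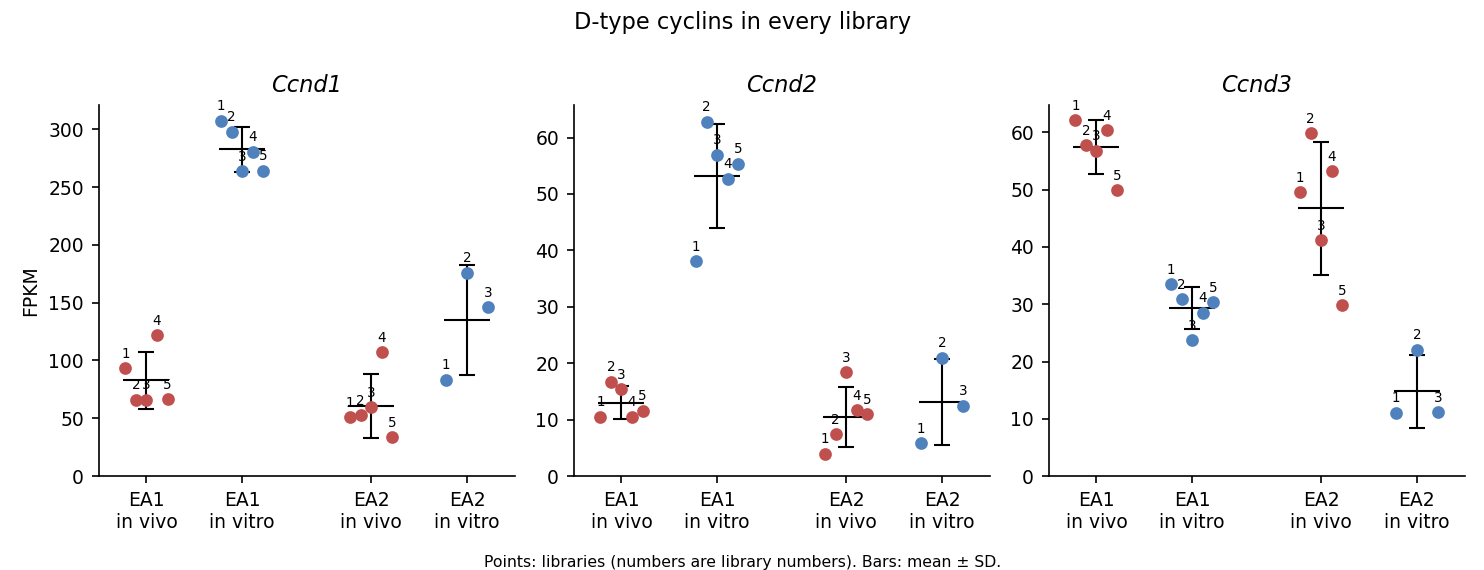
FPKM of Ccnd1, Ccnd2 and Ccnd3 (linear axes from 0) in every library, in vivo left of in vitro for each line, with library numbers beside the points and bars for the mean and SD. Ccnd3 is higher in each in vivo library than in any in vitro library of its line, with 49.9 FPKM as the lowest EA1 in vivo value and 33.5 FPKM as the highest EA1 in vitro value.

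The share of each gene in the summed FPKM of the family does not depend on a factor applied to the whole library. Ccnd3 made up 37.4%, 41.0%, 41.1%, 31.3% and 38.9% of D-type cyclin RNA in EA1 in vivo libraries 1 to 5, against 8.84%, 7.88%, 6.87%, 7.89% and 8.67% in EA1 in vitro libraries. In EA2 its share was 47.4%, 49.9%, 34.6%, 30.9% and 40.1% in vivo, against 11.1%, 10.1% and 6.59% in vitro. The Ccnd3 share was thus 38.0% ± 4.04 in vivo and 8.03% ± 0.783 in vitro in EA1 (SD, n = 5 each), and 40.6% ± 8.14 in vivo (SD, n = 5) and 9.24% ± 2.35 in vitro (SD, n = 3) in EA2. EA2 in vitro library 2, at 10.1%, lay with the other EA2 in vitro libraries here, and the difference against it alone was 30.5 percentage points. The share of Ccnd1 was lower in vivo, at 53.3% ± 6.70 in vivo and 77.4% ± 2.22 in vitro in EA1 and at 50.04% ± 7.32 in vivo and 83.2% ± 2.85 in vitro in EA2, with no overlap in either line. The Ccnd2 share overlapped between the groups in both lines. Ccnd1 nevertheless remained the largest part of the family in every library except EA2 in vivo library 2, where Ccnd3 took 49.9% and Ccnd1 43.9%. The sum of the family was 153 ± 26.3 FPKM in vivo and 365 ± 19.7 FPKM in vitro in EA1 without overlap, and 118 ± 35.5 FPKM in vivo and 163 ± 59.8 FPKM in vitro in EA2 with overlap. In EA2 in vitro library 2 it was 219 FPKM, above every in vivo library.

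**Figure D3:**
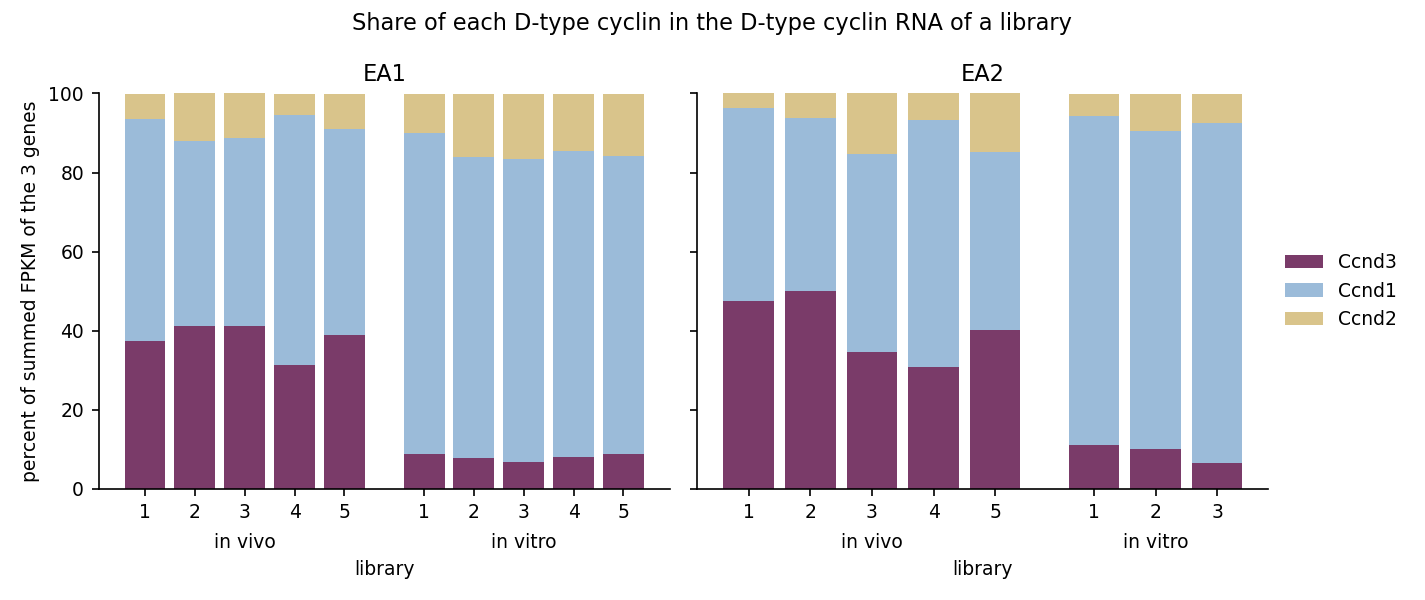
Percent of the summed FPKM of Ccnd1, Ccnd2 and Ccnd3 taken by each gene, 1 bar per library, in vivo libraries left of in vitro libraries. The Ccnd3 part of the bar runs from 30.9% to 49.9% in vivo and from 6.59% to 11.1% in vitro over both lines.

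Promoter sequences were looked up for the members in the RefSeq table provided (GRCm38.p6, 250 bases before to 50 bases after a start). It holds 8 windows for 6 members: Ccnd3, Ccne1, Cdk4, Cdk6, Cdkn1b and Cdkn2a. Ccnd1, Ccnd2, Ccne2 and Cdkn1c have none there. The windows are shown for members called in both lines, since these moved together, and for Cdkn2a, whose 2 starts share one value in the tables. They were searched on both strands for E2F sites (TTTCCCGC, TTTGGCGC, TTTCGCGC or TTTGCCGC, in 2.27% of 32851 windows of the same length), the E-box CACGTG (7.15%), AP-1 TGANTCA (7.81%), CRE TGACGTCA or TAACGTCA (2.03%) and SP1 GGGCGG (35.7%). Matches are in capitals, GGGCGG reading CCGCCC on the other strand, and each is a match of letters only. The 2 windows of Ccnd3, the member that rose in both lines, belong to starts far apart in the gene and hold 2 SP1 matches each.
Ccnd3 window 1 (GRCm38.p6, chr17:47504801-47505100, plus strand): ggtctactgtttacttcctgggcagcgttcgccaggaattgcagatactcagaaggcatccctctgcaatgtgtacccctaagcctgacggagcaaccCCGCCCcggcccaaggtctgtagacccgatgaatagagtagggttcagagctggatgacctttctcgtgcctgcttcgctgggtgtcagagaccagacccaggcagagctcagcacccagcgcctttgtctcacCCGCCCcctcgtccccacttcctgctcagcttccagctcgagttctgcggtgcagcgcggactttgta
Ccnd3 window 2 (GRCm38.p6, chr17:47593217-47593516, plus strand): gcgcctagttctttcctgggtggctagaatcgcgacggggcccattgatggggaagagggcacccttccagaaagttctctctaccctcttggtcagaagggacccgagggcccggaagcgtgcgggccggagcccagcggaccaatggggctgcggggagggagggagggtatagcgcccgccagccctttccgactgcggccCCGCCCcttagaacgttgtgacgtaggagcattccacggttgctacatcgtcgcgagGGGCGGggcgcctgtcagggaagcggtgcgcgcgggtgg

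Both E-type cyclins fell in vivo in both lines. Ccne2 (chr4:11191351-11204779, plus strand) had 3.99, 2.82, 2.47, 4.10 and 3.39 FPKM in EA1 in vivo, against 19.6, 12.8, 8.60, 11.6 and 11.4 FPKM in EA1 in vitro. No in vivo library reached the lowest in vitro library, and the change was -1.64 ± 0.19 (limma, adjusted p = 1.47e-05), a mean 3.82-fold lower. In EA2 Ccne2 had 14.04, 11.3, 15.3, 5.35 and 10.9 FPKM in vivo and 67.8, 18.6 and 102 FPKM in vitro. Libraries 1 and 3 gave most of the in vitro level: the change was -2.14 ± 0.48 with all libraries (limma, adjusted p = 0.00354), and -0.73 and not called against in vitro library 2 alone. The groups did not overlap in either reading. Exons of Ccne2 overlap those of Ints8 on the other strand, and Ints8 averaged 13.8 ± 2.15 FPKM in vivo and 21.4 ± 1.32 FPKM in vitro in EA1 and 24.0 ± 3.50 FPKM in vivo and 19.4 ± 8.44 FPKM in vitro in EA2 (SD).

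Ccne1 (chr7:38097984-38107534, minus strand) was expressed at a few FPKM. In EA1 it had 3.82, 3.05, 1.81, 3.25 and 3.04 FPKM in vivo and 9.69, 7.75, 4.44, 5.86 and 6.51 FPKM in vitro. The groups did not overlap and the change was -0.96 ± 0.19 (limma, adjusted p = 0.000809). In EA2 it had 6.13, 4.91, 5.92, 4.22 and 3.77 FPKM in vivo and 5.93, 9.04 and 13.7 FPKM in vitro, and in vitro library 1 lay among the in vivo values. The change was -0.77 ± 0.25 (limma, adjusted p = 0.0246; exact permutation, two-sided, p = 0.0357) and -0.76, not called, against in vitro library 2 alone. That call was also lost without EA2 in vivo library 5 (-0.69) and EA2 in vitro library 3 (-0.49), without a filter (-0.77) and after removal of the length trend (-0.58). Within the pair, Ccne1 took 46.9% ± 3.84 of the summed FPKM in EA1 in vivo and 34.9% ± 1.97 in EA1 in vitro, without overlap. In EA2 the Ccne1 share was 31.7% ± 7.19 in vivo and 17.5% ± 13.3 in vitro, and in vitro library 2, at 32.7%, lay above 4 of the 5 in vivo libraries. The Ccne1 window has 4 SP1 matches and no E2F match of the letters searched.
Ccne1 window 1 (GRCm38.p6, chr7:38107441-38107740, minus strand): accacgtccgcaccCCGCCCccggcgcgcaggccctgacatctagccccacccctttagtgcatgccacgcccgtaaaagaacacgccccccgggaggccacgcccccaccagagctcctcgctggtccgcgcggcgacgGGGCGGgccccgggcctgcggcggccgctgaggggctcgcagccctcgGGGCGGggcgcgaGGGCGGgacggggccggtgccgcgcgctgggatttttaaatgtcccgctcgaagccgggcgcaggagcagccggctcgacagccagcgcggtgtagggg

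Of the kinases, Cdk4 was called lower in vivo in both lines and Cdk6 in EA1 alone. Cdk4 (chr10:127063534-127067920, plus strand) was the most abundant member in EA1 and the second after Cdkn2a in EA2. It had 218, 241, 269, 187 and 247 FPKM in EA1 in vivo, against 388, 362, 354, 389.9 and 361 FPKM in EA1 in vitro. The groups stood apart by -0.68 ± 0.09 on the log2 scale (limma, adjusted p = 3.61e-05). In EA2 Cdk4 had 344, 303, 338, 408 and 328 FPKM in vivo and 667, 449.7 and 644 FPKM in vitro. These groups did not overlap either, with a change of -0.75 ± 0.21 (limma, adjusted p = 0.0106). Against in vitro library 2 alone the change was -0.39, and after quantile normalization -0.07, and neither was called. Tspan31, whose exons overlap Cdk4 on the other strand, averaged 69.2 ± 5.92 FPKM in vivo and 52.4 ± 3.56 FPKM in vitro in EA1 (SD, n = 5 each), the opposite direction to Cdk4. In EA2 Tspan31 had 53.4 to 94.2 FPKM in vivo and 87.0, 61.4 and 78.4 FPKM in vitro (-0.12, not called), the same direction as Cdk4 and with in vitro library 2 lowest for both genes. The Cdk4 window has 4 E-boxes, which 0.0243% of all windows equal or exceed, at bases -172, -118, -98 and -11 from the start. E-boxes of these letters are bound by Myc and by other basic helix-loop-helix factors.
Cdk4 window 1 (GRCm38.p6, chr10:127063285-127063584, plus strand): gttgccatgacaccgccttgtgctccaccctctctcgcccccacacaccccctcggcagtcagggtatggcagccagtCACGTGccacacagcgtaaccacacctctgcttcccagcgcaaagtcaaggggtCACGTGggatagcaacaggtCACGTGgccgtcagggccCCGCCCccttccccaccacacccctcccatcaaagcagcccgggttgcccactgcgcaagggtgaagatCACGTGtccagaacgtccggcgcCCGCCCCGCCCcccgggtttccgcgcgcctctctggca

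Cdk6 (chr5:3341485-3531008, plus strand), the other partner of the D-type cyclins, was present at a few percent of the Cdk4 level. It had 11.5, 11.5, 9.19, 9.13 and 10.2 FPKM in EA1 in vivo and 13.9, 16.0, 17.5, 14.3 and 13.2 FPKM in EA1 in vitro. The groups did not overlap and Cdk6 fell by 0.50 ± 0.09 on the log2 scale (limma, adjusted p = 0.000606), a call that was lost after removal of the trend with transcript length (-0.17). Its annotated transcript, of 11525 bases, is the longest among the members. In EA2 it had 15.9, 14.3, 11.8, 9.24 and 12.3 FPKM in vivo and 5.82, 12.8 and 7.65 FPKM in vitro. Only in vitro library 2 overlapped the in vivo range, and the change of 0.53 (interval of 2 SE, 0.03 to 1.04) was not called (limma, adjusted p = 0.0932). It was -0.03 against in vitro library 2 alone, and without that library it was 0.82 and called. The changes of the lines differed by -1.03 ± 0.25 (limma, adjusted p = 0.00192), by -0.47 and not called against in vitro library 2 alone, and by 0.15 after removal of the length trend.

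**Figure D4:**
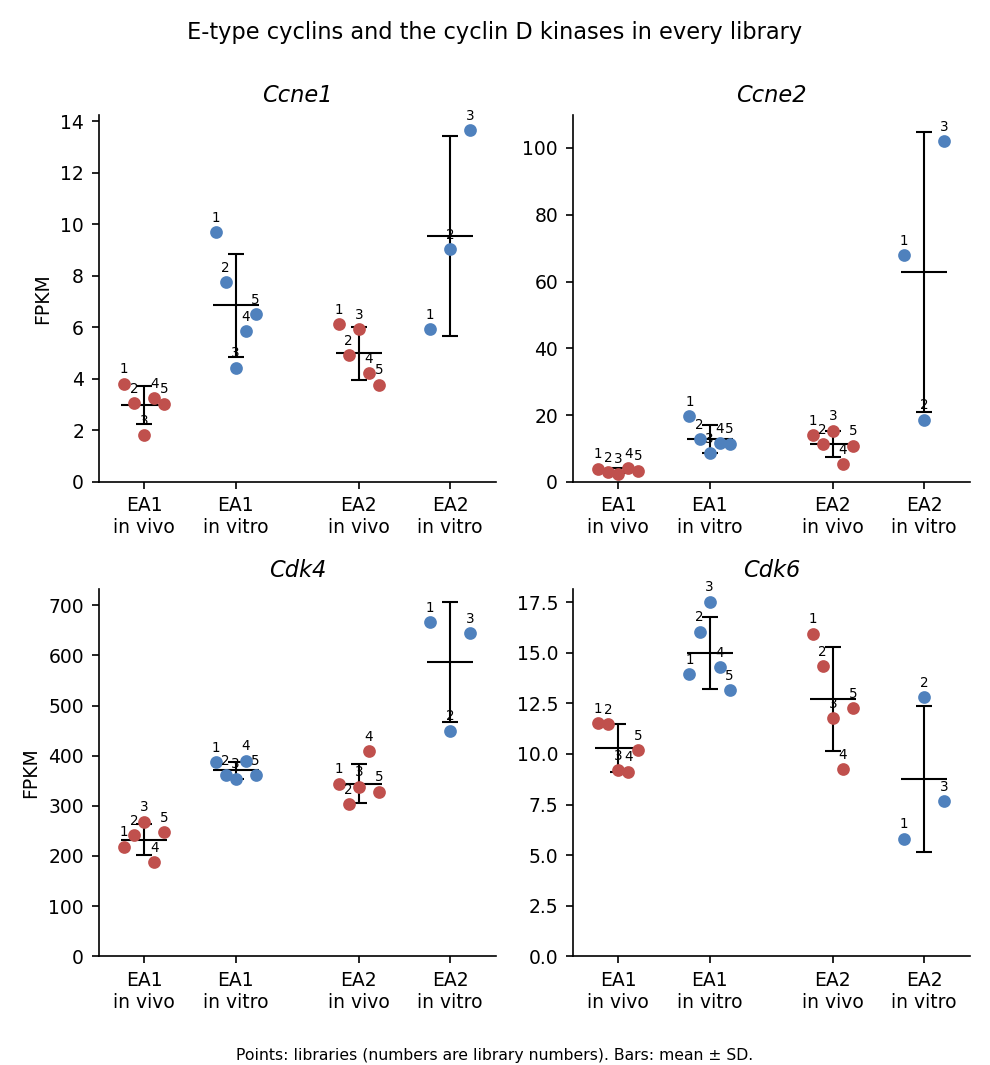
FPKM of Ccne1, Ccne2, Cdk4 and Cdk6 (linear axes from 0) in every library, in vivo left of in vitro for each line, with library numbers beside the points and bars for the mean and SD. In EA2 in vitro, library 2 is set apart from libraries 1 and 3 for Ccne2 (18.6 FPKM, against 67.8 and 102), Cdk4 (449.7, against 667 and 644) and Cdk6 (12.8, against 5.82 and 7.65).

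The inhibitors behaved as 3 separate cases. Cdkn1b (chr6:134920401-134925513, plus strand), encoding p27, had 28.6, 29.1, 29.7, 35.2 and 30.1 FPKM in EA1 in vivo and 30.2, 31.4, 29.6, 33.6 and 35.3 FPKM in EA1 in vitro. In EA2 it had 26.2, 31.8, 26.1, 22.2 and 25.4 FPKM in vivo and 31.3, 20.8 and 36.3 FPKM in vitro. The groups overlapped in both lines, and no difference was called: -0.07 in EA1 (interval of 2 SE, -0.21 to 0.08, limma, adjusted p = 0.429) and -0.13 in EA2 (-0.56 to 0.30, limma, adjusted p = 0.620). Against EA2 in vitro library 2 alone it was 0.32 and not called. Of the members tested in both lines, this was the only one called in neither.

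Cdkn1c (chr7:143458339-143461050, minus strand), encoding p57, was the least abundant member in EA2 and, by group mean, lower than every EA1 member except Cdkn2a. It had 2.58, 2.92, 2.74, 1.24 and 2.31 FPKM in EA1 in vivo and 0.370, 0.270, 0.274, 0.436 and 0.368 FPKM in EA1 in vitro. The lowest in vivo value, in library 4, was still above the highest in vitro value, and the change was 1.30 ± 0.14 (limma, adjusted p = 1.22e-05). Cdkn1c passed the filter only through its in vivo values, so it had to differ in order to be tested, and its call is no support for a change in the members as a group. In EA2 it had 0.0878, 0.133, 0.150, 0.771 and 0.439 FPKM in vivo and 0.0842, 0.0211 and 0.0879 FPKM in vitro and was not tested with limma (exact permutation, two-sided, p = 0.143). At these values, far below 1 FPKM, the number of fragments is unknown. The change differed between the lines by 1.02 ± 0.24 (limma, adjusted p = 0.00147), a call lost with a pseudocount of 0.1 (1.32) and after quantile normalization (0.52).

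Cdkn2a (chr4:89274471-89294653, minus strand) was all but missing from EA1 and the most abundant member in EA2. In EA1 it was listed at 0.01, the lowest value of that table, in in vivo libraries 1 and 4, and at 0.116, 0.0492 and 0.269 FPKM in in vivo libraries 2, 3 and 5, against 0.01 in all 5 in vitro libraries. In EA2 it had 1286, 1415, 1096, 1229.8 and 1096 FPKM in vivo, against 924, 867 and 691 FPKM in vitro. The EA2 groups did not overlap and the change was 0.57 ± 0.20 (limma, adjusted p = 0.0327; exact permutation, two-sided, p = 0.0179). That call was lost after median-of-ratios scaling (0.35), without a filter (0.57), against in vitro library 2 alone (0.49), and when EA2 in vivo library 1, 2, 3 or 4 or EA2 in vitro library 3 was left out (0.44 to 0.61). With quantile normalization it was 1.24 and after removal of the length trend 1.37, and both were called. The difference between the lines, -0.46 ± 0.16 (limma, adjusted p = 0.0165), sets a change at high level against values near the lowest value of the other table, and with a pseudocount of 0.1 it was 0.06. It was also lost after median-of-ratios scaling (-0.24), against EA2 in vitro library 2 alone (-0.38) and without EA2 in vitro library 3 (-0.34).

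The neighbors of Cdkn2a show how far this line difference reached. Cdkn2b (chr4:89306299-89311039, minus strand), encoding the CDK4 and CDK6 inhibitor p15INK4b, was at 0.0654 to 0.341 FPKM in EA1 in vivo and at 0.01 in all 5 EA1 in vitro libraries. In EA2 it had 157 to 181 FPKM in vivo and 221 to 342 FPKM in vitro and fell by 0.70 on the log2 scale (limma, adjusted p = 0.0113; -0.68 against in vitro library 2 alone), whereas Cdkn2a rose there. Mtap (chr4:89137122-89181081, plus strand), an enzyme of methionine salvage on the other side of Cdkn2a, was expressed in both lines, at 147 ± 14.6 FPKM in vivo and 219.8 ± 11.98 FPKM in vitro in EA1 and 122 ± 27.8 FPKM in vivo and 132 ± 0.911 FPKM in vitro in EA2 (SD). Cdkn2b and Mtap are no members and were added because their values lie beside those of Cdkn2a on the chromosome.

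The value of Cdkn2a joins the transcripts of p16INK4a and p19ARF, which have separate first exons. In the annotation provided, its 2 basic transcripts hold 852 and 895 exonic bases, of which 575 are shared, so the FPKM of the gene cannot tell them apart. Window 1 belongs to the start farther upstream and has the only E2F match in the 8 windows searched (TTTCCCGC at base -99), together with 3 SP1 matches. Window 2 belongs to the start nearer the shared exons and has 1 SP1 match.
Cdkn2a window 1 (GRCm38.p6, chr4:89294570-89294869, minus strand): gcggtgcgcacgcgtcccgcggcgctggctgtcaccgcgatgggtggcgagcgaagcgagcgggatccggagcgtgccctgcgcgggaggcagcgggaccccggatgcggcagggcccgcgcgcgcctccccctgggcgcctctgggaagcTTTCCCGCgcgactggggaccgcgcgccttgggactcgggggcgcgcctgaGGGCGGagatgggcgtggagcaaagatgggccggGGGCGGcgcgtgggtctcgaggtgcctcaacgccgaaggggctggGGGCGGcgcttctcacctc
Cdkn2a window 2 (GRCm38.p6, chr4:89282143-89282442, minus strand): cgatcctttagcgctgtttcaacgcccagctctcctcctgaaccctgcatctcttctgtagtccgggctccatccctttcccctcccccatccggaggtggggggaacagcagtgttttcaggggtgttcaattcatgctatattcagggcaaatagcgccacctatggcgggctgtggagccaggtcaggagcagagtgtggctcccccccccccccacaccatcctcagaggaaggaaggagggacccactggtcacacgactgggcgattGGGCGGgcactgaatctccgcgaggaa

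**Figure D5:**
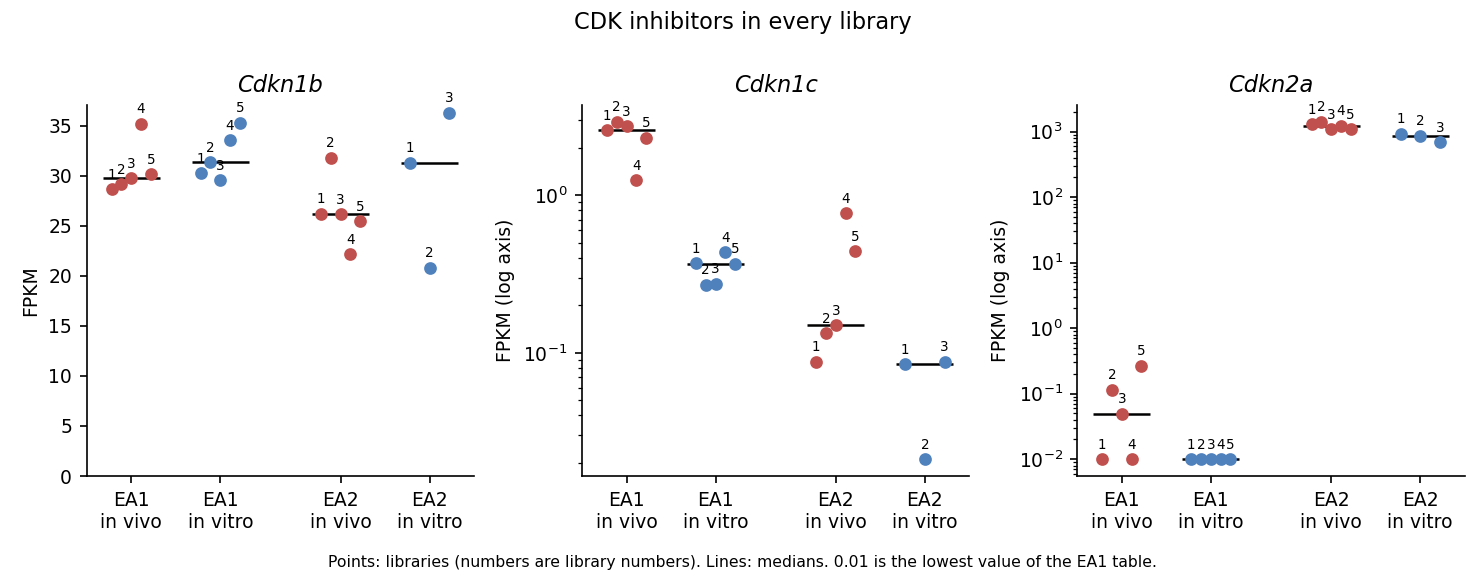
FPKM of Cdkn1b (linear axis from 0), Cdkn1c and Cdkn2a (log axes) in every library, in vivo left of in vitro for each line, with lines at the medians. Cdkn2a lies at or near 0.01 in EA1 and between 691 and 1415 FPKM in EA2, and Cdkn1c in EA1 lies between 1.24 and 2.92 FPKM in vivo and between 0.270 and 0.436 FPKM in vitro.

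By level within a library group, Ccnd2 and Ccnd3 traded places in EA1. In EA1 in vivo the order was Cdk4, Ccnd1, Ccnd3, Cdkn1b, Ccnd2, Cdk6, Ccne2, Ccne1, Cdkn1c and Cdkn2a, and in EA1 in vitro Cdk4, Ccnd1, Ccnd2, Cdkn1b, Ccnd3, Cdk6, Ccne2, Ccne1, Cdkn1c and Cdkn2a. The neighbors whose ranges overlapped were Ccnd2 with Cdk6, Ccne2 with Ccne1 and Ccne1 with Cdkn1c in vivo, and Cdkn1b with Ccnd3, Cdk6 with Ccne2 and Ccne2 with Ccne1 in vitro. In EA2 in vivo the order was Cdkn2a, Cdk4, Ccnd1, Ccnd3, Cdkn1b, Cdk6, Ccne2, Ccnd2, Ccne1 and Cdkn1c, and in EA2 in vitro Cdkn2a, Cdk4, Ccnd1, Ccne2, Cdkn1b, Ccnd3, Ccnd2, Ccne1, Cdk6 and Cdkn1c. There the neighbors from Ccnd1 to Cdkn1b and from Cdk6 to Ccne1 in vivo, and all from Ccnd1 to Cdk6 in vitro, overlapped in range.

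Larger changes, with group means more than 1 apart on the log2 scale and over 5 FPKM in the higher group, were found in EA1 for 4 members lower in vivo, Ccnd1, Ccnd2, Ccne1 and Ccne2, and for none higher. Over all genes tested in EA1, 7.95% met them as lower and 9.9% as higher. In EA2 Ccnd1 and Ccne2 met them as lower (16% of all genes) and Ccnd3 as higher (18.6%). In exact permutation tests over the libraries (two-sided, on log2(FPKM + 1)), 8 members in EA1 (72.6% of all genes tested) and 5 in EA2 (55.3%) had p under 0.05, where the smallest p possible is 0.0079 in EA1 and 0.0179 in EA2.

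Genes around the members in the pathway were described by counts, to be read beside the shares of all genes called (30.9% higher and 40.7% lower in EA1, 32.9% higher and 24.4% lower in EA2). Of 11 other cyclins and kinases of G1 and S phase tested in EA1, 8 fell and 1 rose in vivo (median -0.62, all genes -0.09), and of 12 tested in EA2, 7 fell and none rose (median -0.63, all genes 0.18). These counts include Cdc25a and Mnat1, which are neither cyclins nor kinases. Cdk1, the mitotic kinase, fell furthest in both lines, to 22.2 ± 2.70 FPKM in vivo against 77.8 ± 10.97 FPKM in vitro in EA1 (limma, adjusted p = 1.70e-07), and to 24.4 ± 3.45 FPKM in vivo against 137 ± 84.0 FPKM in vitro in EA2 (limma, adjusted p = 0.000296). With in vitro library 2 as the only EA2 culture Cdk1 was at -1.53. Ccna2, cyclin A of S phase, averaged 36.3 FPKM in vivo and 105 FPKM in vitro in EA1, where it fell, and 29.0 FPKM in vivo and 42.8 FPKM in vitro in EA2, where it was not called. Cdk2, the partner of cyclin E, fell in both lines, by 1.03 in EA1 and 0.67 in EA2 on the log2 scale. Ccnc, a cyclin of the Mediator kinase, fell by 1.91 and Cdk3-ps by 1.29 in EA2, and the gene that rose in EA1 was Ccng2 (0.59), named after its values were seen. All 25 genes of S phase and mitosis fell in EA1 (median -1.59), among them Top2a, a topoisomerase of dividing cells, by 2.06, Ube2c by 1.96 and the mitotic kinase Aurka by 1.90. In EA2 11 of the same 25 fell and 1 rose (median -0.29). The replication inhibitor Gmnn fell by 2.34 there, Aurka by 1.72 and Tyms, which makes thymidylate, by 1.63, while the helicase subunit Mcm4, named after its values were seen, rose by 0.87. The proliferation marker Mki67, chosen after its values were seen, stood in EA2 at 8.25 ± 1.21 FPKM in vivo and 5.20 ± 3.51 FPKM in vitro and was not called. Against EA2 in vitro library 2 alone Mcm4 was at -0.02, Gmnn at -1.13, Aurka at -1.77 and Tyms at -0.80.

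Other CDK inhibitors did not move as a block. Cdkn2c, encoding p18INK4c, rose in vivo in both lines, with 29.1 ± 7.09 FPKM in vivo and 21.2 ± 4.03 FPKM in vitro in EA1 (limma, adjusted p = 0.0407) and 35.9 ± 20.5 FPKM in vivo and 9.77 ± 0.584 FPKM in vitro in EA2 (limma, adjusted p = 0.0088). Its EA2 change against in vitro library 2 alone was 1.51 and not called. Cdkn1a, encoding p21, a p53 target, fell by 0.48 in EA1 and averaged 9.80 FPKM in vivo and 11.4 FPKM in vitro in EA2. Cdkn2d, encoding p19INK4d, fell by 1.22 in EA2, and its change of 0.20 in EA1 was not called. Cdkn3, a phosphatase of CDKs, fell by 0.42 in EA1 and 1.57 in EA2. A list of 17 genes held the retinoblastoma family and E2F genes together with Tfdp1, Tfdp2, Lin9, Lin37, Lin52 and Lin54. Of these 17, 11 fell and 2 rose in EA1 (median -0.72), and 6 fell and 4 rose in EA2 (median 0.03). Rbl1, encoding p107, fell in both lines (-1.40 in EA1 and -0.95 in EA2), and Rbl2, encoding p130 of quiescent cells, rose in both (0.61 in EA1 and 1.36 in EA2, or 0.74 against EA2 in vitro library 2 alone). E2f3 fell in EA1 (-1.23) and rose in EA2 (0.64, or 0.24 against EA2 in vitro library 2 alone). E2f7, a repressor, fell in EA1 (-1.56), and E2f5 fell in EA2 (-0.88). Of 17 genes for the turnover of G1 cyclins and p27, 10 fell and 2 rose in EA1 (median -0.24), and 5 fell and 6 rose in EA2 (median -0.01), near the shares over all EA2 genes. With in vitro library 2 as the only EA2 culture Rbl1 was at -1.03 and E2f5 at -0.85. The ubiquitin ligase subunit Skp2 and its cofactors Cks1b and Cks2, which mark p27 for degradation, fell in both lines: Skp2 by 1.29 and 0.94, Cks1b by 1.42 and 1.89, and Cks2 by 1.15 and 2.83 on the log2 scale in EA1 and EA2. With in vitro library 2 as the only EA2 culture their changes were -0.90 (Skp2, not called), -1.13 (Cks1b) and -1.64 (Cks2). Gsk3b, a kinase that marks cyclin D1 for export and degradation, rose in EA2 (1.38, or 0.75 against EA2 in vitro library 2 alone).

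The genes most like each member called in both lines were found by the mean of Pearson's r in EA1 (10 libraries) and EA2 (8 libraries) over 10334 genes, as a description, since all points share the split into in vivo and in vitro. For Ccnd1 these were Syk (r 0.99 in EA1 and 0.98 in EA2) and Cnn2 (0.97 and 0.94). For Ccnd3 they were Wbp1l (0.98 and 0.98) and Abhd4 (0.99 and 0.97). Ccne1 was most like Ckap2 (0.96 and 0.95) and Dna2 (0.95 and 0.94), and Ccne2 most like Rbbp4 (0.99 and 0.99) and Txnl1 (0.98 and 0.99). Cdk4 was most like Mrpl46 (0.97 and 0.99) and 1810009A15Rik (0.96 and 0.98).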

How the data were processed

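RNA of sorted tumor cells (in vivo) and cultured cells (in vitro) had been sequenced from stranded polyA libraries. Per the labels and the methods of the study, the authors aligned reads with STAR to mm10 (GRCm38) and deposited FPKM per gene made with Cufflinks (version 2.0.2 in the submitters' processing notes, a later one in the methods), with the annotation release and the use of strand not given in the sources used here. Entries listed as a status word (6, EA1) or a date (27, EA2) were left out. The values used here are not counts, so depth is unknown. Replicates were called independent, and p-values measure the spread between libraries.

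Per line, log2(FPKM + 1) was fitted with limma 3.58.1 (trend, R 4.3.3) over 11212 (EA1) or 11074 (EA2) genes of at least 1 FPKM in 5 or 3 libraries. One fit of 18 libraries over 11930 genes gave differences between lines. Fold changes on this scale understate low genes. Exact permutation tests (two-sided) used 252 or 56 splits. Adjusted p-values are Benjamini-Hochberg values over all genes tested, and exact p-values are not adjusted. Scripts were tested on simulated data. Copies were sought with minimap2 2.31-r1302, and gene coordinates are from GENCODE M21. Other work used Python 3.11.15. Alternatives were pseudocount 0.1, no filter or 5 FPKM, 2 other scalings, robust variance, a replicate block, removed length trend, EA2 in vitro library 2 alone and each library left out. The members and lists, some drawn from earlier work on these files, were chosen with earlier results of these data known. Genes named beside the members are the 3 called genes of each list with the largest change per line, the leading marker genes, and those said to be named or chosen after their values were seen.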

Additional observations from a re-analysis of the deposited data

Results flagged for a closer look

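The change in vivo differed between EA1 and EA2 for 5 of the 10 members in the limma fit over all 18 libraries, where 63.3% of all genes tested also differed. The differences (EA1 minus EA2, log2 scale) were -1.68 for Ccnd2, -0.68 for Ccnd3, -1.03 for Cdk6, 1.02 for Cdkn1c and -0.46 for Cdkn2a. Cdkn1c passed the filter only through its EA1 in vivo values and was below 1 FPKM in every EA2 library, and Cdkn2a was at or near the lowest value in EA1 (0.06 with a pseudocount of 0.1), so these 2 differences do not stand on the same footing as the other 3. The values in each library stand in the report.

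A library stood apart from the rest of its group in 2 of 48 groups of 5 libraries looked at, where chance alone marks about 1 group in 20. Cdkn1b was at 35.2 FPKM in EA1 in vivo library 4, against 28.6 to 30.1 FPKM in the other 4 in vivo libraries of EA1. Ccne1 made up 44.1% of the summed Ccne1 and Ccne2 FPKM in EA2 in vivo library 4, against 25.7% to 30.4% in the other 4 in vivo libraries of EA2. These 2 libraries also had the highest summed fibroblast and pericyte markers of their groups, at 2897 FPKM in EA1 and 836 FPKM in EA2. EA2 in vivo library 2 was close, at 801 FPKM, with a Ccne1 share of 30.4%. EA2 in vivo library 4 also had the highest endothelial (20.5 FPKM) and lung epithelium (194 FPKM) sums of its group. EA1 in vivo library 4 had the lowest endothelial sum of its group (30.5 FPKM). The part of other cells in these values was not tested.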

How the results depend on the processing

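Of the alternatives for single members, 157 of 160 in EA1, 124 of 153 in EA2 and 229 of 269 for the difference between lines kept their direction and their side of the threshold. The 8 calls in EA1 became 6 with a filter of 5 FPKM, which Ccne1 and Cdkn1c did not pass, and 7 without the length trend. Over all genes, 2400 of 8723 were called higher and 3911 lower with that filter. Without the length trend these were 3924 and 3630 of 10829, against 3459 and 4560 of 11212 in the fit used above. The member calls in EA1 numbered 8 whichever library was left out. The 6 calls in EA2 became 3 with the replicate number as a block (Ccnd1, Ccnd3 and Ccne2). With the block, 3088 of all 11074 genes were called higher and 2137 lower, against 3643 and 2702 in the fit used above. Member calls in EA2 ranged from 3 to 6 over left-out libraries, with 3 without in vitro library 3. Without that library 2870 of 11259 genes were called higher and 2248 lower. Values against in vitro library 2 alone are given with each member. The 5 differences between lines became 3 with a pseudocount of 0.1, 3 with median-of-ratios scaling and 1 against in vitro library 2 alone (Cdkn1c). Without the length trend there were 3 calls, of which Cdkn1c and Cdkn2a were among the 5 and Cdkn1b (0.64) was not. The count ranged from 3 to 6 over left-out libraries, with 3 without EA2 in vitro library 3. The replicate numbers do not pair the libraries: same-numbered libraries deviated together with r of -0.06 to 0.08 (EA1) and -0.13 to 0.01 (EA2).

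Signs changed for called values only in the difference between lines: Cdkn2a and Cdk6 lost theirs, and Cdk4, not called at first, was called with the other sign with quantile normalization. In EA1 Cdkn1b was 0.017 with quantile normalization and 0.13 without the length trend. In EA2 Cdk6 was -0.32 without the length trend and -0.032 against in vitro library 2 alone, where Cdkn1b was 0.32. Over left-out libraries in EA2, Ccnd2 ran from -0.73 to 0.12 and Cdkn1b from -0.35 to 0.034. Differences between lines were 0.046 for Ccne1 with median-of-ratios scaling, 0.062 for Cdkn2a with a pseudocount of 0.1, -0.68 for Cdk4 with quantile normalization (called there), -0.079 for Cdk4 and 0.15 for Cdk6 without the length trend, and -0.025 for Cdkn1b with the replicate block. Against in vitro library 2 alone they were -0.90 for Ccne2, -0.29 for Cdk4 and -0.38 for Cdkn1b. Over left-out libraries they ran from -0.47 to 0.075 for Ccne1, from -0.030 to 0.25 for Cdk4 and from -0.10 to 0.29 for Cdkn1b. Against in vitro library 2 alone the EA2 shares differed by -0.193 percentage points for Ccnd2 and -1.04 for Ccne1. The difference in the Ccnd3 share over left-out libraries was 29.1 to 31.6 percentage points (EA1) and 29.0 to 33.8 percentage points (EA2). The causes were not tested.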
